A study of Rattus norvegicus with 10 samples.

Results

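The chaperones of the endoplasmic reticulum and the stress gene Ddit3 were followed in rat liver after a burn injury. They are 8 genes, Hspa5, Hsp90b1, Calr, Canx, P4hb, Pdia3, Pdia4 and Ddit3, and every probe set whose single gene symbol in the probe table of the array was one of these was taken. They are 8 of 4737 genes named by a single symbol, and 21 of 8799 probe sets. The series held 10 arrays of liver RNA in 5 groups of 2: sham rats, and rats 1, 4, 8 and 24 h after the burn. The labels give no strain, sex, age or burn protocol, and do not state that different rats stood behind both arrays of a time, so each p-value here reflects array-to-array spread that may be purely technical. A bulk liver value cannot tell fewer cells of a type from less RNA per cell.

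Secreted and membrane proteins fold in the endoplasmic reticulum (ER), and the hepatocyte, which makes most plasma proteins, carries a large ER. When unfolded proteins build up there, the sensors Ire1, Perk and Atf6 start the unfolded protein response, which slows translation and raises the transcription of chaperone genes. Hspa5 encodes BiP, the Hsp70 chaperone that also holds the sensors inactive, and Hsp90b1 encodes Grp94, the Hsp90 of the ER. Calr and Canx encode calreticulin and calnexin, lectins that hold glycoproteins while they fold. P4hb, Pdia3 and Pdia4 encode protein disulfide isomerases, of which Pdia3 (ERp57) works with the lectins. Ddit3 encodes CHOP, a transcription factor induced by the Perk branch and linked to cell death.

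Many chaperone genes carry the ER stress element (ERSE), a pair of short boxes at a fixed distance bound by NF-Y and Atf6. The 250 bases before the annotated start site were available for 7 of the 8 genes, from RefSeq on build GRCr8, and are shown for the 4 genes with an ERSE match and for P4hb, whose highest group means were at 8 h. Capitals mark each match to the element (CCAAT, then 9 bases of any kind, then CCACG) on either strand, and the sequences run 5′ to 3′ on the strand of the gene.
Hspa5: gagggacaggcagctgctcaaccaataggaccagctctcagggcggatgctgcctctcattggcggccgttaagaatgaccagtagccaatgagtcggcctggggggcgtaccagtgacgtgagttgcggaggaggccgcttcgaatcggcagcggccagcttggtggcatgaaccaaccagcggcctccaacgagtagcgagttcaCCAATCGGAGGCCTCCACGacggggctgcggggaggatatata
Hsp90b1: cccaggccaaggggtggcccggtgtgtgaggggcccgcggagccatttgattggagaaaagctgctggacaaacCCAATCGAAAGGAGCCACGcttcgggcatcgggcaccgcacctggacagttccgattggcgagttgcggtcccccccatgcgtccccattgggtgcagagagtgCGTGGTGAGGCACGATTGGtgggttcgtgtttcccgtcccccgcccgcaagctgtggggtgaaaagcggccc
Calr: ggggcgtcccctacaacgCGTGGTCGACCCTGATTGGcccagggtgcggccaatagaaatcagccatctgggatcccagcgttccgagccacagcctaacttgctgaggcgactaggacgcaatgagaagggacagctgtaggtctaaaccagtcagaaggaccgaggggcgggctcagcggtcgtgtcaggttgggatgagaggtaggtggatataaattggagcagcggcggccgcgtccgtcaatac
Canx: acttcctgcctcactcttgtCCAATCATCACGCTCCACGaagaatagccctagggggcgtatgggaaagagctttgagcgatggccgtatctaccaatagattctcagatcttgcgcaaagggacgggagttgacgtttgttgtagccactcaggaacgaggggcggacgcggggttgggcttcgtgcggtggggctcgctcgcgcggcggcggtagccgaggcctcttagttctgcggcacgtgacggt
P4hb: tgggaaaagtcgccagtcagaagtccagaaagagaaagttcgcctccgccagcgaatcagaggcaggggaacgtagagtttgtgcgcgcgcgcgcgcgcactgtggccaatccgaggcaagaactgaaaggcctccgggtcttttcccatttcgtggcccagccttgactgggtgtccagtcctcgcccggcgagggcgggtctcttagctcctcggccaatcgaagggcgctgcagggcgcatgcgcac
The Hspa5 window is chr3:38452766-38453015 on the plus strand, and its match ends 25 bases before the start. The Hsp90b1 window is chr7:23012294-23012543 on the minus strand and held a match on each strand. The Calr window is chr19:40213117-40213366 on the plus strand with its match on the opposite strand, the Canx window is chr10:35157858-35158107 on the minus strand, and the P4hb window is chr10:106346912-106347161 on the minus strand. A match stood in 4 of the 7 windows, against 22 of 33469 windows of the same length over all promoters (0.0657%). Many chaperone genes are known to carry the element, so this contrast is a description and no test of enrichment. The windows of Pdia4 and Ddit3 had no match either. The second form of the element (ATTGG, 1 base of any kind, CCACG) was in 0 of the 7 and in 0.0418% of all windows. The core TGACGTG was in the Hspa5 window alone among the 7, 135 to 129 bases before the start, and in 1.54% of all windows. CCAAT by itself, which the element contains, was in 7 of 7 and in 34.0% of all windows. A match is a description of the letters and not a bound site, and its relation to any time course was not tested. In the main fit Calr, which had a match, gave no call, and neither did P4hb and Pdia4, which had none.

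**Figure D1:**
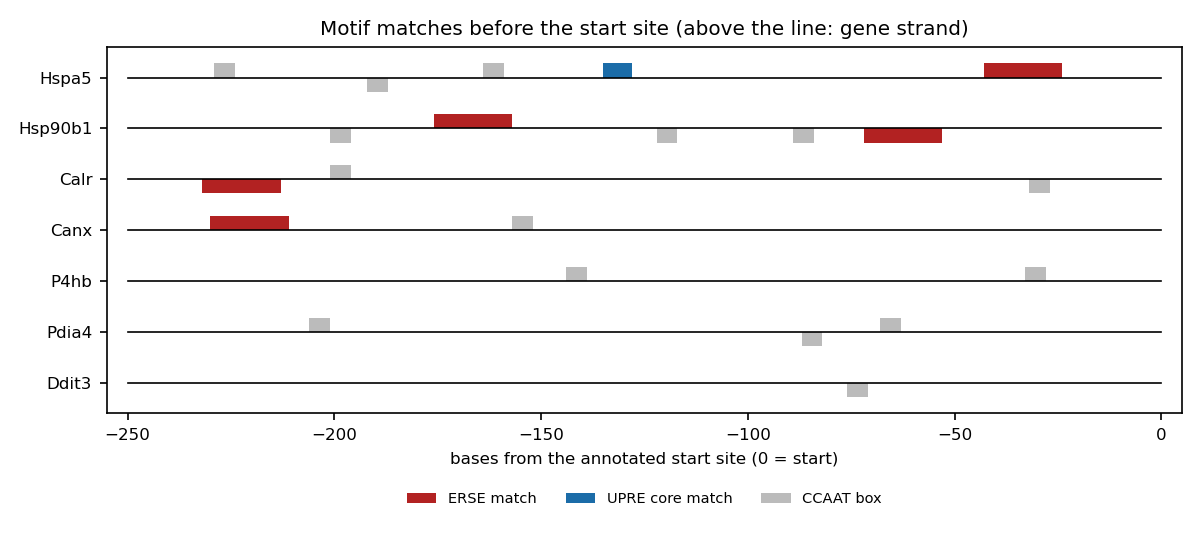
Motif matches in the 250 bases before the start site of 7 genes, with distance from the start in bases on the x axis; blocks above a line lie on the strand of the gene and blocks below it on the other strand. Red blocks (ERSE) stand in Hspa5, Hsp90b1, Calr and Canx, and in none of P4hb, Pdia4 and Ddit3.

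Of the 21 probe sets, 19 from 7 genes were brighter than the array median on 2 or more arrays and were tested with limma, alongside 5285 probe sets in all. Values are deposited intensities on a linear scale with every array scaled to about the same trimmed mean. Values under 36.4 were raised to 36.4 before the log2 step, and a probe set was called at a Benjamini-Hochberg adjusted p under 0.05 over the 5285. Array medians ran from 100.1 to 131.1. All 9 hepatocyte markers present were above 36.4 on at least 1 array, and their summed intensity was between 236526 and 359523 on every array.

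Hspa5 rose at 24 h. On M14050_s_at it read 2639 and 2533 in sham livers, 3209 and 2398 at 1 h, 3523 and 3058 at 4 h, 2237 and 1960.2 at 8 h, and 7477 and 6075 at 24 h. Both 24 h arrays lay above all 8 other arrays, and the 8 h arrays lay below all others. The mean was 6776 ± 992 at 24 h and 2586 ± 74.8 in sham livers (SD, n = 2 each), a 2.61-fold increase (log2 change 1.38, SE 0.21, limma adjusted p = 0.0085). In the order of levels, sham and 1 h overlapped, as did 1 h and 4 h, and the 8 h arrays were lower than sham by a log2 change of -0.30 that did not pass (adjusted p = 0.485). The log2 change at 24 h against 8 h was 1.69 (SE 0.21, 3.22-fold, limma adjusted p = 0.00362). Against sham, the call at 24 h was lost without sham array 2 (adjusted p = 0.0522) or 24 h array 1 (0.0534), and when these 4 arrays alone were fitted (0.0698).

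The other Hspa5 designs were dimmer. S63521_i_at read 372 and 186 in sham livers, 663 and 433 at 1 h, 555 and 323 at 4 h, 334 and 204 at 8 h, and 793 and 639 at 24 h. Its 24 h arrays were above both sham arrays and both 8 h arrays, with a log2 change against sham of 1.44 close to that of M14050_s_at but an SE of 0.45, and it did not pass (limma adjusted p = 0.0943). In each group its array 1 was the brighter. With a term for the replicate number in the fit, this probe set passed against sham at 24 h (SE 0.195, limma adjusted p = 0.0103), so the result depends on that choice. Its 1 h arrays were also above both sham arrays (log2 change 1.03, adjusted p = 0.423). S63521_r_at lay between 0.9 and 60.3 over the 10 arrays, with 9 under 36.4, and was not tested.

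On the rc_AI010725 designs Canx was high at 4 h and 24 h and low at 8 h. Against sham it had no call at 4 h or 8 h. On rc_AI010725_at it read 701 and 807 in sham livers, 828 and 709 at 1 h, 1150.1 and 1279 at 4 h, 497 and 342 at 8 h, and 1469 and 1323 at 24 h. The 24 h arrays were the highest and the 8 h arrays the lowest of the 10. It rose 1.85-fold at 24 h against sham (log2 change 0.89, SE 0.22, limma adjusted p = 0.0472) and 3.38-fold at 24 h against 8 h (log2 change 1.76, adjusted p = 0.00399), and it fell by 1.56 on the log2 scale at 8 h against 4 h (adjusted p = 0.00722). Both steps passed with each array left out in turn, while the call against sham held only without either 8 h array (adjusted p up to 0.19). With only the groups compared the adjusted p was 0.106 for 24 h against sham, 0.0602 for 24 h against 8 h and 0.0872 for 8 h against 4 h.

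The overlapping design rc_AI010725_g_at, built on the same source sequence and so no independent measurement, read 976 and 1023 in sham livers, 1373 and 1134 at 1 h, 1901 and 1606 at 4 h, 821 and 693 at 8 h, and 1905 and 1642 at 24 h. Its 24 h arrays were above both sham arrays (log2 change 0.82, SE 0.19, limma adjusted p = 0.0363), a call that held only without either 4 h array (up to 0.168). Its log2 change at 24 h against 8 h was 1.23 (adjusted p = 0.00811, and 0.0555 without 24 h array 1). It fell by 1.21 at 8 h against 4 h (adjusted p = 0.0107, but 0.0674 without 4 h array 1 and 0.061 without 8 h array 2). At 4 h the log2 change against sham was 0.81 and did not pass (adjusted p = 0.0672). With only the groups compared the adjusted p was 0.111 for 24 h against sham, 0.0655 for 24 h against 8 h and 0.0933 for 8 h against 4 h.

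The other 3 Canx probe sets had smaller differences at 24 h against 8 h and at 8 h against 4 h, and none was called. At 24 h rc_AI235707_g_at read 2457 and 2052, against 1631 and 1462 in sham livers (log2 change 0.54, SE 0.19, limma adjusted p = 0.135). The 24 h arrays of L18889_at and rc_AA893328_at overlapped with their sham arrays. Their log2 changes at 24 h against sham were 0.13 and 0.21 (adjusted p = 0.670 and 0.713). L18889_at read 1222 and 1162 at 8 h against 1687 and 1809 at 4 h (log2 change -0.55, SE 0.16, adjusted p = 0.0934). On rc_AA893328_at, which read 312 and 379 at 8 h against 654 and 460 at 4 h, the change was -0.67 (SE 0.29, adjusted p = 0.219). All 5 had both 24 h arrays above both 8 h arrays and both 8 h arrays below both 4 h arrays. Over the 10 arrays the 5 correlated with each other at 0.61 to 0.95 (Pearson, log2 scale, given as a description since the probe sets share arrays and a gene).

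**Figure D2:**
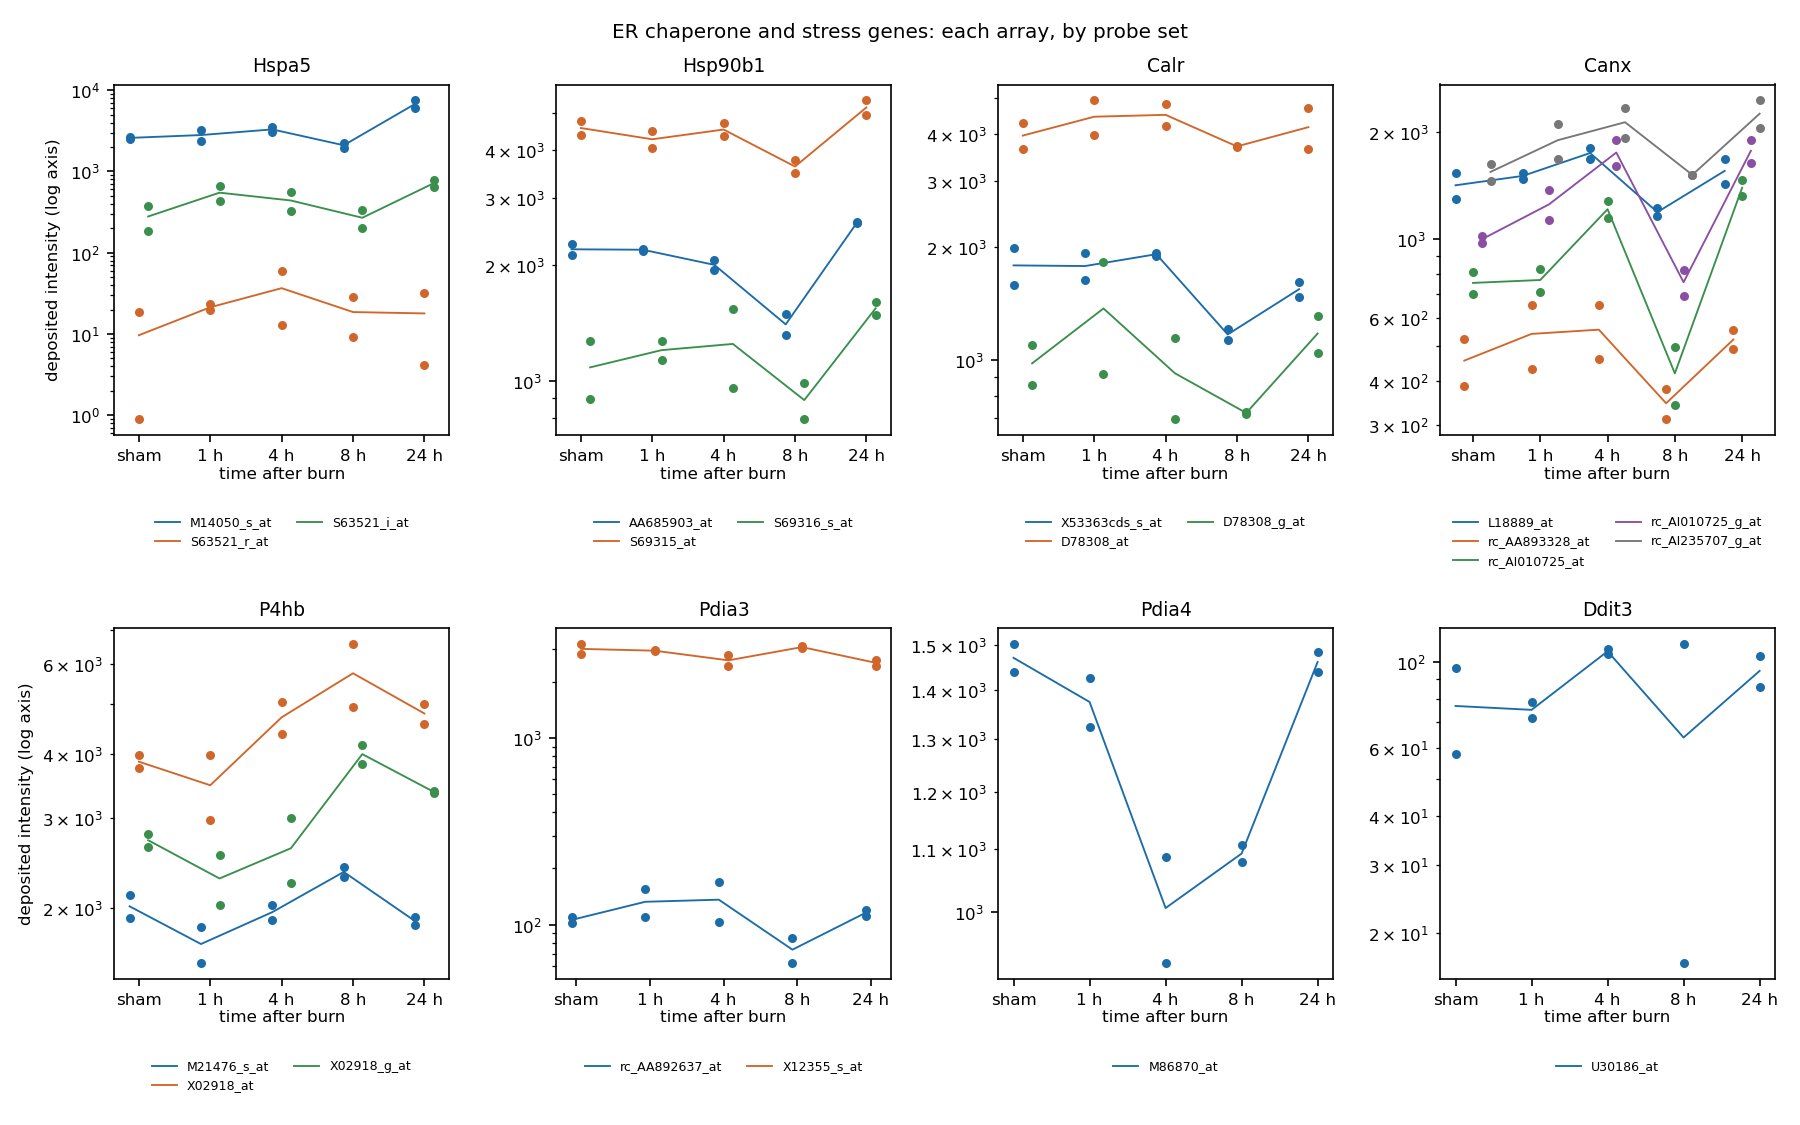
Deposited intensity (log axis) of each of the 10 arrays by time after burn for the 21 probe sets of the 8 genes; each point is an array, each colour a probe set, and lines join group means. The 24 h arrays of Hspa5 M14050_s_at (7477 and 6075) lie above its other 8 arrays, the 8 h arrays of the Canx probe sets lie below their 4 h and 24 h arrays, and P4hb has its highest means at 8 h.

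Hsp90b1 was lowest at 8 h on all 3 of its probe sets. On AA685903_at it read 2275 and 2127 in sham livers, 2179 and 2211 at 1 h, 2063 and 1945 at 4 h, 1493 and 1311 at 8 h, and 2586 and 2584 at 24 h. The 8 h arrays were the lowest and the 24 h arrays the highest. It rose 1.85-fold at 24 h against 8 h (log2 change 0.89, SE 0.15, limma adjusted p = 0.0113). That call was lost without 8 h array 2 (adjusted p = 0.0612) or either 24 h array (0.0603 and 0.0632), and with only the groups compared (0.0857). Against sham the log2 change was -0.65 at 8 h (adjusted p = 0.0625) and 0.23 at 24 h (adjusted p = 0.389), and neither passed.

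S69315_at of the same gene read 5381 and 4936 at 24 h and 3753 and 3482 at 8 h (log2 change 0.51, SE 0.15, limma adjusted p = 0.0769). S69316_s_at read 1603 and 1485 at 24 h and 985 and 794 at 8 h (log2 change 0.80, SE 0.28, adjusted p = 0.115). In both the 24 h arrays lay above the 8 h arrays and above the sham arrays, and neither passed.

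Calr gave no call in the main fit, and its 3 probe sets did not run together. X53363cds_s_at was low at 8 h, with 1207 and 1134, against 1896 and 1933 at 4 h (log2 change -0.71, SE 0.18, limma adjusted p = 0.0556) and 1994 and 1581 in sham livers (log2 change -0.60, adjusted p = 0.128). D78308_at read 3720.3 and 3696 at 8 h and 3658 and 4267 in sham livers, which overlap. D78308_g_at, on the same source sequence as D78308_at, read 920.1 and 1825 on the 1 h arrays, a spread wider than any of its differences between group means. The correlations among the 3 were 0.42, 0.29 and 0.19 over 10 arrays, where 3 probe sets of Hsp90b1 gave 0.57 to 0.87.

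P4hb had its highest group mean at 8 h on each of its 3 probe sets, and none was called in the main fit. X02918_at and X02918_g_at were built on the same source sequence and so are no independent measurements. X02918_at read 3974 and 3753 in sham livers, 3976 and 2973 at 1 h, 5064 and 4371 at 4 h, 6555 and 4951 at 8 h, and 5017 and 4582 at 24 h. At 8 h both arrays were above both sham arrays, as they were on X02918_g_at (4171 and 3824 at 8 h, 2635 and 2790.4 in sham livers) and M21476_s_at (2404 and 2299 at 8 h, 2115 and 1913 in sham livers). The log2 changes at 8 h against sham were 0.56, 0.56 and 0.22, and none passed (limma adjusted p = 0.229, 0.198 and 0.495). The 24 h arrays were below both 8 h arrays on X02918_g_at and M21476_s_at, and they overlapped on X02918_at. No test compared the time course of P4hb with that of Hspa5 or Canx.

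Pdia4 and Pdia3 were not called at any time in the main fit. Pdia4, on M86870_at, read 1502 and 1441 in sham livers, 1427 and 1324 at 1 h, 925 and 1086 at 4 h, 1078 and 1106 at 8 h, and 1439 and 1485 at 24 h. Its 4 h and 8 h arrays lay below the other 6, with a log2 change at 4 h against sham of -0.55 (SE 0.15, limma adjusted p = 0.105) and at 8 h of -0.43 (adjusted p = 0.194). The 24 h arrays overlapped with the sham arrays. The 2 probe sets of Pdia3 ran apart (Pearson r = -0.29 over 10 arrays). X12355_s_at stayed within 2432 and 3182 on all 10 arrays. Its 24 h arrays lay below both sham arrays and both 8 h arrays (log2 change -0.25 and -0.28, limma adjusted p = 0.379 and 0.291). Its 8 h arrays lay above both 4 h arrays (log2 change 0.24, adjusted p = 0.418). The dimmer rc_AA892637_at stayed within 62.4 and 168.7, with 84.4 and 62.4 at 8 h against 109.5 and 102.4 in sham livers (log2 change -0.55, adjusted p = 0.369).

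Ddit3 was near background. U30186_at read 96.1 and 57.7 in sham livers, 78.6 and 71.7 at 1 h, 108 and 104.6 at 4 h, 110.8 and 16.8 at 8 h, and 86.1 and 103.2 at 24 h. It stood above the array median on fewer than 2 arrays and was not tested. Both 4 h arrays lay above both sham arrays and both 1 h arrays lay between them, while 1 of the 8 h arrays was above and 1 below them. The 8 h arrays differed from each other by more than any group mean did. With no filter on dim probe sets its log2 change against sham at 4 h was 0.51 (SE 0.54, limma adjusted p = 0.851). At 24 h it was 0.34 (adjusted p = 0.892), and neither passed.

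**Figure D3:**
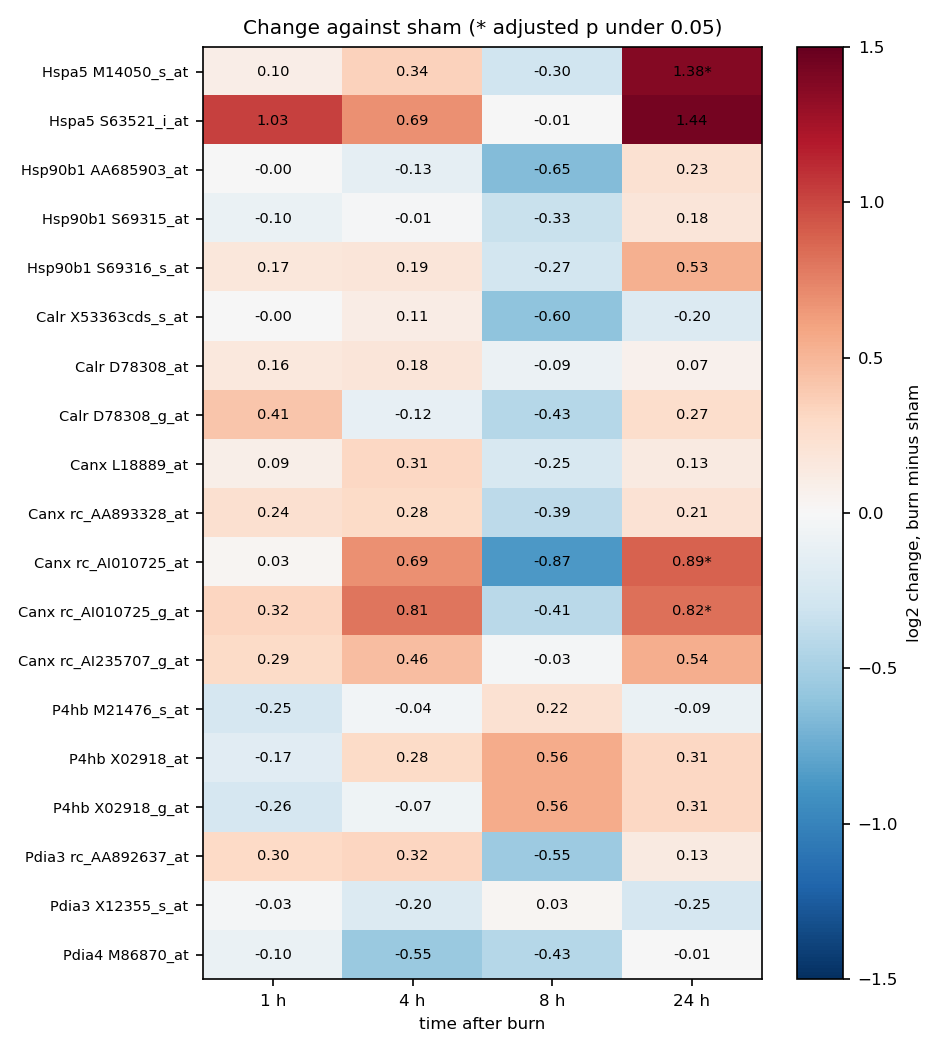
Log2 change against sham (colour and printed value) of the 19 tested probe sets at each time after burn; an asterisk marks an adjusted p under 0.05. The 3 marked cells are at 24 h, in Hspa5 M14050_s_at and the 2 designs of Canx rc_AI010725, and the 8 h column is below 0 in 15 of the 19 rows.

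Over the 19 probe sets, 0 were called at 1 h against sham (limma, 0 with an unadjusted p under 0.05), where 1.44% of all probe sets were called. At 4 h 0 were called (4 unadjusted), against 4.35%, and at 8 h 0 (6 unadjusted), against 3.50%. At 24 h 3 of 19 rose and 0 fell, where 10.3% of all were called and 3.94% were called as higher. The 3 probe sets stand for 2 genes. By the F test over the burn times 4 of 19 were called, Hspa5 M14050_s_at (adjusted p = 0.0108), both designs of Canx rc_AI010725 (0.0107 and 0.0161) and Hsp90b1 AA685903_at (0.0366), where 15.3% of all were called.

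Between consecutive times, 0 of 19 rose and 0 fell at 4 h against 1 h (3 unadjusted, limma), where 2.46% of all were called as higher and 2.54% as lower. In the next step, 8 h against 4 h, 2 fell, both of Canx, where 8.29% of all were called and 4.81% as lower. In the last step, 24 h against 8 h, 4 rose, from Hspa5, Hsp90b1 and Canx, where 11.8% were called and 5.81% as higher. The median log2 change of the 19 was 0.57 at 24 h against 8 h, where the median of all 5285 was 0.07. It was -0.48 at 8 h against 4 h, and that of all -0.07. Against sham the medians of the 19 and of all were 0.09 and 0.01 for the 1 h arrays, 0.19 and -0.04 for the 4 h arrays, -0.30 and -0.10 for the 8 h arrays, and 0.23 and -0.04 for the 24 h arrays. Both 24 h arrays lay above both 8 h arrays in 14 of the 19, and in 30.8% of all tested probe sets. Both 24 h arrays lay above both sham arrays in 11, and in 24.6% of all, and both 8 h arrays below both sham arrays in 11, and in 29.7% of all. The 3 probe sets with both 8 h arrays above both sham arrays, against 18.6% of all, were those of P4hb. Both 8 h arrays lay below both 4 h arrays in 11, and in 28.7% of all. Probe sets of a gene share its transcript and comparisons share arrays, so these counts describe the members and are not separate pieces of evidence.

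**Figure D4:**
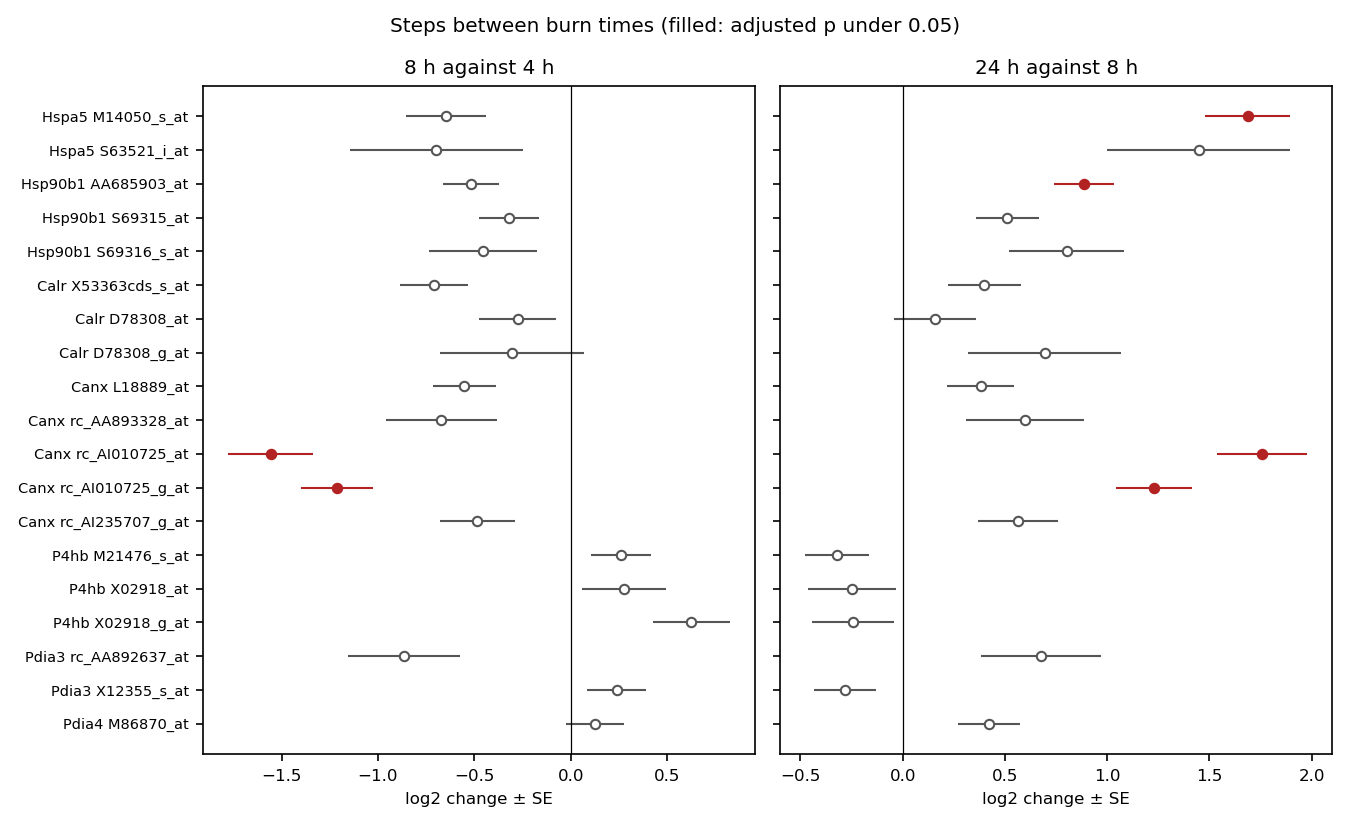
Log2 change (point) with its standard error (bar) of the 19 tested probe sets at 8 h against 4 h and at 24 h against 8 h; filled red points have an adjusted p under 0.05. The Canx rc_AI010725_at change is -1.56 in the first step and 1.76 in the second. The points of P4hb and of Pdia3 X12355_s_at lie on the other side of 0 in both.

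Genes of the same compartment outside the 8 were read from 4 lists, each gene by its brightest tested probe set. Of 30 ER folding enzymes and chaperones 15 were on the array and 13 tested. At 24 h against sham 1 rose, 0 fell and 12 did not pass. The riser was Hyou1, the ER chaperone that exchanges nucleotide on BiP, with 1020.1 and 1114 at 24 h against 548 and 603 in sham livers (log2 change 0.89, SE 0.19, limma adjusted p = 0.0293, up to 0.133 without any 1 of the sham or 24 h arrays). Dnajb9, a J-domain partner of BiP, read 415.5 and 292 at 24 h against 123 and 109.1 at 8 h and rose (log2 change 1.59, SE 0.28, adjusted p = 0.0134, lost without either 8 h array or 24 h array 1 at up to 0.0757). Dnajb9 fell at 8 h against 4 h, where it read 387 and 272 (log2 change -1.49, adjusted p = 0.0222, lost without 4 h array 1 or either 8 h array at up to 0.112). P4ha1, a collagen prolyl hydroxylase subunit, fell at 4 h against sham, to 81.2 and 68.1 against 184.5 and 141.1 (log2 change -1.12, adjusted p = 0.0266). That call held only without either 1 h array (up to 0.143 otherwise). It was also lost with a floor at the 50th percentile (log2 change -0.41, adjusted p = 0.236) and with an intensity trend in the variance (0.118). At 24 h against 8 h 3 of the 13 rose, Hyou1, Dnajb9 and Ero1b (an ER oxidase), and Erp29 fell.

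Erp29, a thioredoxin-like ER chaperone, rose at 8 h. On U36482_g_at it read 1135 and 982 in sham livers, 1065 and 1070.3 at 1 h, 609 and 529 at 4 h, 1884 and 1851 at 8 h, and 1169 and 1015 at 24 h. It rose 3.29-fold at 8 h against 4 h (log2 change 1.72, SE 0.16, limma adjusted p = 0.00146), and the call held with each array left out. It fell by 0.90 at 4 h against sham (adjusted p = 0.0258, lost without any 1 of the sham, 1 h or 4 h arrays, up to 0.132). It rose by a log2 change of 0.82 at 8 h against sham (0.0452, lost without any 1 of the 10 arrays, up to 0.17).

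Among 12 tested genes of translocation and glycosylation, from a list of 31 with 12 on the array, 1 rose at 8 h against sham and 11 did not pass. That gene was Rpn2, a subunit of the oligosaccharyltransferase, with 3458 and 3284 at 8 h against 1909 and 1811 in sham livers (log2 change 0.86, SE 0.15, limma adjusted p = 0.0351, lost without any 1 of the 10 arrays, up to 0.127). Of the 12, 3 rose at 8 h against 4 h, Ssr4, Rpn2 and Rpn1 (another subunit of that transferase), and Ssr3 fell. Ssr4, the delta subunit of the translocon-associated complex, read 3002 and 3009 at 8 h against 1686 and 1936 at 4 h (log2 change 0.73, adjusted p = 0.0255, held only without either sham array, otherwise up to 0.116). Ssr3, the gamma subunit of the same complex, read 584 and 1022 at 8 h against 1877 and 1776 at 4 h (log2 change -1.24, adjusted p = 0.0369, held only without 8 h array 2, otherwise up to 0.151). At 24 h Ssr3 read 2336 and 2464 and rose against 8 h (log2 change 1.63, adjusted p = 0.0113, lost without either 24 h array at up to 0.0654). In that step Ssr4 and Rpn2 fell. The log2 change of Ssr4 was -0.63 (adjusted p = 0.0345, held only without either 4 h array, otherwise up to 0.133), and that of Rpn2 was -0.85 (0.0147, lost without any 1 of the 8 h or 24 h arrays, up to 0.0849). At 1 h, 4 h and 24 h against sham 0 of the 12 were called (0, 0 and 1 with an unadjusted p under 0.05).

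In the list of unfolded protein response sensors, factors and targets, 11 of 15 genes on the array (of 29 listed) were tested. At 4 h against sham 3 rose, 0 fell and 8 did not pass. Gadd45a, a growth arrest gene, read 1266 and 1231 at 4 h against 728 and 622 in sham livers (log2 change 0.89, SE 0.15, limma adjusted p = 0.0209, lost without any 1 of the sham or 4 h arrays, up to 0.115). Cebpb, a C/EBP factor that pairs with CHOP, read 3365 and 3650 at 4 h against 1585 and 1877 in sham livers (log2 change 1.02, adjusted p = 0.0191, lost without any 1 of the same arrays, up to 0.104). The third was Eif2ak3, which encodes the sensor Perk. Of the 11, 6 fell and 0 rose at 8 h against 4 h. Among these, Nupr1, a stress-induced chromatin protein gene, fell by 1.85 (230 and 197 at 8 h, 843 and 704 at 4 h, adjusted p = 0.00295) and Gadd45a by 1.34 (adjusted p = 0.00336), both with each array left out in turn. In the step to 24 h, against 8 h, 3 of the 11 rose (Eif2ak3, Eif2s1 and Slc3a2) and Cebpb fell. The Cebpb call (log2 change -0.68, limma adjusted p = 0.0454) was lost after quantile normalization (0.0607) and without both 1 h arrays (0.0637). That of Eif2s1 (log2 change 0.87, adjusted p = 0.00985) was lost with only the groups compared (0.0815). With an array left out the changes ran from -0.77 to -0.60 for Cebpb and from 0.82 to 0.93 for Eif2s1. At 8 h against sham Nupr1 and Slc3a2, the heavy chain of amino acid transporters, fell. The Nupr1 call (log2 change -1.05, limma adjusted p = 0.0446) was lost after quantile normalization (0.102) and without both 1 h arrays (0.0815). With an array left out its log2 change ran from -1.26 to -0.83. At 24 h against sham 1 rose and 2 fell, Cebpb and the eIF2 phosphatase subunit Ppp1r15a. The riser was Eif2s1, the eIF2 alpha subunit that Perk phosphorylates, with 959 and 1005 at 24 h against 543 and 558 in sham livers (log2 change 0.83, SE 0.14, adjusted p = 0.0128, lost without any 1 of the sham or 24 h arrays, up to 0.0727). Cebpb, at 1074 and 1057 at 24 h, was among the 2 that fell against sham (adjusted p = 0.0472, lost without any 1 of the 10 arrays, up to 0.2). Of ER-associated degradation genes 4 of 20 were on the array and 3 tested, and 0 were called against sham (1, 1, 2 and 2 unadjusted at 1, 4, 8 and 24 h, limma). Ube2g2, a ubiquitin-conjugating enzyme of that pathway, read 1055 and 1712 at 4 h against 106 and 156.7 at 1 h (log2 change 3.38, SE 0.65, adjusted p = 0.0293, held only without either sham array, otherwise up to 0.171), with sham arrays of 97.4 and 424. Of the 31 calls of the 12 genes named by the rule over all times and steps, 30 were lost when only the groups compared were fitted, 12 without both 1 h arrays and 8 after quantile normalization.

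**Figure D5:**
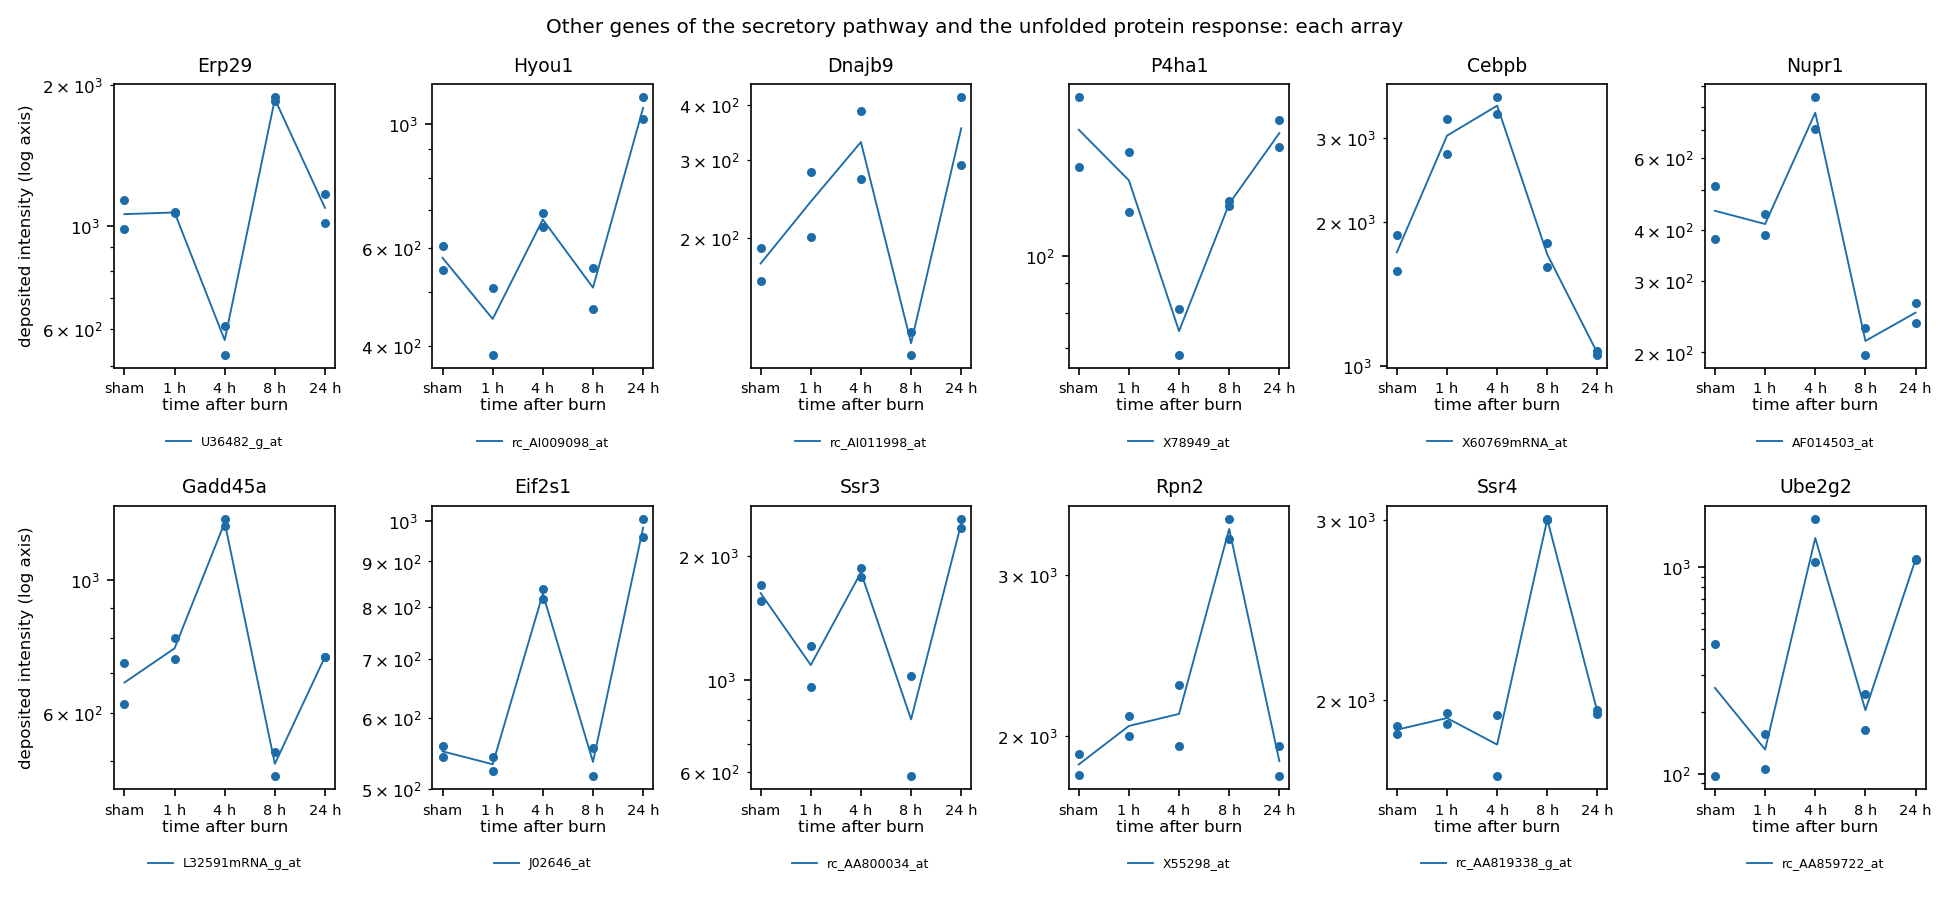
Deposited intensity (log axis) of each array by time after burn for 12 named genes of the 4 lists; points are arrays and lines join group means. Hyou1, Dnajb9, Eif2s1 and Ssr3 have 24 h means above their 8 h means, while Erp29, Rpn2 and Ssr4 have their highest means at 8 h.

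Pancreatic enzyme genes varied between the groups. The summed intensity of the 17 acinar cell markers on the array (of 19 listed) was 9651 to 10407 in sham livers, 44979 to 47455 at 1 h, 2415 to 2447 at 4 h, 13535 to 13964 at 8 h and 2184 to 2670.0 at 24 h, and none was under 36.4 on every array. Against sham 12 of the 17 rose at 1 h, 8 fell at 4 h, 4 rose at 8 h and 9 fell at 24 h. The part of pancreatic RNA in the chaperone values at any time was not tested. With both 1 h arrays left out, a step added after seeing the data, Hspa5 M14050_s_at was the 1 member still called at 24 h against sham. Leaving them out alters the shared estimate of spread and not the log2 change at 24 h against sham. It is therefore no test of pancreatic RNA. Kupffer cell and macrophage markers (6 of 11 on the array) summed to 2955 to 2989 at 24 h and 4369 to 4389 in sham livers. At 8 h they summed to 4716 to 4732, and at 4 h to 3416 to 3873. Hepatocyte markers summed to 236526 to 305448 at 4 h, 344176 to 359523 at 8 h and 294813 to 317935 at 24 h. In sham livers the hepatocyte sums were 287863 to 345482. The part of other cells in the differences between times, or against sham, was not tested. Neutrophil markers (3 of 8 on the array) summed to 130.0 to 310.0 over all arrays. Lymphocyte and plasma cell markers (8 of 12) summed to 957 to 1247 at 24 h and 1374 to 1475 in sham livers. Their sums were 1034.5 to 1189 at 1 h, 963 to 1101 at 4 h and 1020 to 1195 at 8 h. Stellate and endothelial markers (8 of 11) summed to 2083 to 2254 at 24 h and 2342 to 2704 in sham livers. At 8 h they summed to 2174 to 2270, and at 4 h to 2829 to 2874. Erythroid markers (5 of 8) summed to 40514 to 44207 at 24 h and 51023 to 53317 in sham livers. Their sums were 62367 to 71757 at 1 h, 39724 to 44336 at 4 h and 40599 to 47636 at 8 h. Cd2 and Des were under 36.4 on every array.

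The genes whose log2 values were most like the mean profile of the 7 chaperone genes over the 10 arrays, among 3136 other tested genes, were Txnrd1 (thioredoxin reductase, r = 0.94), Arf4 (a small GTPase of the Golgi, r = 0.94), Plin2 (a lipid droplet coat protein, r = 0.93), Ppp1cc (a protein phosphatase 1 catalytic subunit, r = 0.92) and Psma5 (a proteasome subunit, r = 0.91). The profile averaged the centred log2 values of each gene's brightest tested probe set without scaling, so genes with larger changes weighed more. At 24 h against 8 h the change was 1.69 for Hspa5 M14050_s_at. It was -0.25 for P4hb X02918_at and -0.28 for Pdia3 X12355_s_at, so the profile does not stand for each of the 7. The mean of Txnrd1 was 1878 at 24 h, against 788 at 8 h and 891 in sham livers. Those most like Ddit3 were Manea (0.91), Rnmt (0.90) and Krt19 (0.86), from values close to background. These correlations were the highest of a search over all tested genes and are a description only.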

How the data were processed

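Rat liver RNA had been hybridised to expression arrays, 2 for sham and 2 for each of 4 times after burn. The authors deposited linear intensity values per probe set (8799). From the deposited values, means trimmed by 2% at each end were nearly equal, so the authors had scaled the arrays; the sources used here name no software. Values were used as deposited, floored at 36.4 (the median of the arrays' 25th percentiles) and put on the log2 scale. Probe sets above their array's median on at least 2 arrays were tested (5285) with limma 3.58.1 in R 4.3.3 (two-sided). The 5 groups were in 1 fit without covariates, with 5 residual degrees of freedom and Benjamini-Hochberg adjustment. The probe table gave 1 symbol for 7018 probe sets, several for 308 and none for 1473. The number of arrays limits the precision.

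The members and lists were chosen with earlier results of these data known. All 8 genes are named, with up to 4 called genes of each list by smallest F test p, and the genes most like the members in profile (5 for the chaperones, 3 for Ddit3). Eif2ak3, Slc3a2, Ppp1r15a, Rpn1 and Ero1b fall outside that rule and were named after their values were seen. Folds are ratios of geometric means after the floor. Each of these was changed in turn: scaling (to quantile normalization), floor percentile (10 or 50), filter (none), variance model (robust, with an intensity trend), probe set designs (plain ones only) and arrays (only the groups compared, or all but 1). A replicate block was also tried. The fit was tested on simulated data.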

Additional observations from a re-analysis of the deposited data

Results flagged for a closer look

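The change against sham differed between 2 times, by the test of the difference itself, for 4 probe sets of 3 genes. The log2 change at 24 h against 8 h was 1.69 for Hspa5 M14050_s_at, 0.89 for Hsp90b1 AA685903_at, 1.76 for Canx rc_AI010725_at and 1.23 for Canx rc_AI010725_g_at. At 8 h against 4 h it was -1.56 for Canx rc_AI010725_at and -1.21 for Canx rc_AI010725_g_at. The 2 Canx designs share a source sequence, and limma's adjusted p for these 6 differences ran from 0.00362 to 0.0113.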

How the results depend on the processing

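Of the 19 probe sets, 3 were called at 24 h against sham. The count was 5 with an intensity trend and robust variance, 0 with plain designs (9 probe sets tested), 0 with only the groups compared, 1 without both 1 h arrays (added after seeing the data) and 0 to 2 with an array left out. For 4 h against sham it was 0, and 1 after quantile normalization, with no filter and with the replicate block, 2 with the trend and with a floor at the 50th percentile. For 8 h against sham it was 0, and 2 with a floor at the 50th percentile, 1 with no filter and 3 with the trend. For 8 h against 4 h it was 2, and 5 with a floor at the 50th percentile, 4 with no filter, 7 with the trend, 1 with plain designs, 0 with only the groups compared and 1 to 2 with an array left out. For 24 h against 8 h it was 4, and 8 with the trend, 2 with plain designs, 1 with only the groups compared and 2 to 4 with an array left out. For the F test it was 4, and 8 with the trend, 2 with plain designs and 1 to 3 with an array left out. Plain designs and fits of only the groups compared have fewer probe sets or arrays by construction. For the other changes the cause was not tested. Calls over all tested probe sets moved as well. At 24 h against sham they were 543 in the main fit, 830 with the trend and 104 with only the groups compared. In the same order they were 185, 377 and 0 at 8 h against sham. They were 438, 683 and 70 at 8 h against 4 h, and 621, 866 and 167 at 24 h against 8 h. A moved member count is therefore not particular to the chaperones. Each called change of the members and of the 12 named list genes kept its direction under the settings run; changes under 0.5 on the log2 scale were not all followed. The median of all probe sets turned its sign with quantile normalization at 1 h (-0.01) and 24 h (0.01) against sham and at 8 h against 4 h (0.01). Canx rc_AI010725_at was also lost at 24 h against sham with no filter (0.0583) and with plain designs (0.0547). Other probe sets passed only outside the main fit. With a floor at the 50th percentile, no filter and the trend, Pdia4 passed at 4 h against sham (limma adjusted p = 0.0438, 0.0291 and 0.0309). Under the same settings Hsp90b1 AA685903_at passed at 8 h against sham (0.0227, 0.0144 and 0.00748). So did Calr X53363cds_s_at at 8 h against 4 h (0.0278, 0.0439 and 0.0104). The labels give no meaning to the replicate numbers. Deviations of same-numbered arrays correlated between groups at 0.01 to 0.17, all 10 above 0 and 5 over 0.1. Whether same-numbered arrays share more than a number cannot be told from the labels, and the main fit held no replicate term. With the replicate block the count was 3 for 8 h against 4 h, 6 for 24 h against 8 h and 5 for the F test. In that fit Hspa5 S63521_i_at passed at 24 h against sham (adjusted p = 0.0103) and against 8 h (0.00914), Canx rc_AI010725_g_at at 4 h (0.0456), and Canx rc_AI010725_at did not pass at 24 h (0.0555). Quantile normalization gave a median of the 19 at 8 h against sham of -0.22. Low intensity limits Ddit3, S63521_r_at and Pdia3 rc_AA892637_at.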
